A study of Homo sapiens with 2 samples.

Results

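The mERG peaks of chromosome 17 in VCaP cells are described here. They were chosen by the chromosome on which the deposited list places them, and chromosome 17 was itself selected on its peak density, the highest of any chromosome in the list. Chromosome 17 held 1239 of the 18070 peaks (6.86%). The list numbers its peaks up to 18276, so 206 numbers are not listed, 4 of them within the run of chromosome 17; what these were is not known. The segment from 25 to 30 Mb was chosen by its number of peaks. Density, score and width therefore stand below as descriptions with no test, while location class and sequence, which were not used for the choice, were tested. Of the 1451 genes of chromosome 17 that could be placed on the map, 221 were named by at least 1 peak (15.2%), against 17.8% over all chromosomes and 40.9% between 25 and 30 Mb. The order turned with a minimum score of 50 (7.86% against 6.55%) and with peaks within 10 kb of the gene's start (8.20% against 7.61%). Values for other chromosomes include peaks on unplaced contigs, except where sequence is compared.

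The study asked where methylated ERG lies in the genome of prostate cancer cells that carry the TMPRSS2-ERG fusion. VCaP is such a line, grown here in regular medium with no treatment named. The antibody was a rabbit polyclonal raised against an ERG peptide mono-methylated at 1 lysine, K362. There was 1 ChIP library with this antibody and 1 control, whose labels name both input and IgG, so the values have no replicates and no spread between replicates is known.

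ERG belongs to the ETS family of transcription factors, which bind DNA at a GGAA core with flanking bases that differ between members. EZH2, the methyltransferase of Polycomb repressive complex 2, methylates histone H3 and also methylates other proteins, ERG among them. In ChIP-seq, fragments bound by an antibody are sequenced and regions with more reads than the control are called as peaks; the annotation names each peak for the gene with the nearest transcription start site (TSS), so a peak inside a long gene can carry the name of a neighbour.

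The sequences below show what lies at the centres of the peaks that lead the results. They are the 200 bases around the centres of the strongest peak of the chromosome and of the strongest peak from 25 to 30 Mb. Both are from the plus strand of hg19, in lower case, with each GGAA (or TTCC, the same core on the other strand) in capitals.
KANSL1 peak, score 468.6, intron 2 of 15, chr17:44251069-44251268: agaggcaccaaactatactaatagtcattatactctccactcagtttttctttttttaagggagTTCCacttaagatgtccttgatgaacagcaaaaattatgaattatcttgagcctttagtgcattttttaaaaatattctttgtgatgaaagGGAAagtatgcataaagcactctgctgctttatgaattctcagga
TAOK1 peak, score 216.4, intron 1 of 19, chr17:27770203-27770402: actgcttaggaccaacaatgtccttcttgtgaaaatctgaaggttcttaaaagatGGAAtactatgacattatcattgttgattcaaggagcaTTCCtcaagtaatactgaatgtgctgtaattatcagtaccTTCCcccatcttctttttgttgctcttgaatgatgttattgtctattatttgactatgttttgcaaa
The KANSL1 sequence holds 2 such cores and the TAOK1 sequence 3. Over all chromosome 17 peaks, the 201 bases at the centre held a median of 2 and a mean of 1.83, so these counts are ordinary. The fuller ETS core, CCGGAAGT with at most 1 mismatch outside GGAA, was found in 0 of the sequences shown. Both are rich in A and T, with a GC content of 33% (KANSL1) and 34% (TAOK1).

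Peaks were spread unevenly along the chromosome. Over the whole of it, 81.2 Mb long, there were 15.3 peaks per Mb. In 5 Mb steps from the start of the chromosome, counted by peak centre, the first step (0 to 5 Mb) held 70 peaks and the next held 5, 2, 28 and 1. The step from 25 to 30 Mb then held 414 peaks, 33.4% of the chromosome. The steps from 30 to 35, 35 to 40 and 40 to 45 Mb followed with 117, 155 and 168 peaks. From 45 to 50 Mb there were 78 peaks, and the steps after it held 8, 53, 56, 20, 33 and 27 up to 80 Mb and 4 in the last, shorter step. The 4 steps from 25 to 45 Mb, a span chosen after these values were seen, thus held 854 peaks (68.9%) and the other 13 steps 385. Long stretches had no peak at all: 5.11 Mb between 68.2 and 73.3 Mb, 4.84 Mb between 20.4 and 25.3 Mb, and 4.17 Mb between 4.26 and 8.43 Mb. Of the 82 steps of 1 Mb, 20 had no peak and 15 had 20 or more, and those 15 held 73.3% of the peaks.

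**Figure D1:**
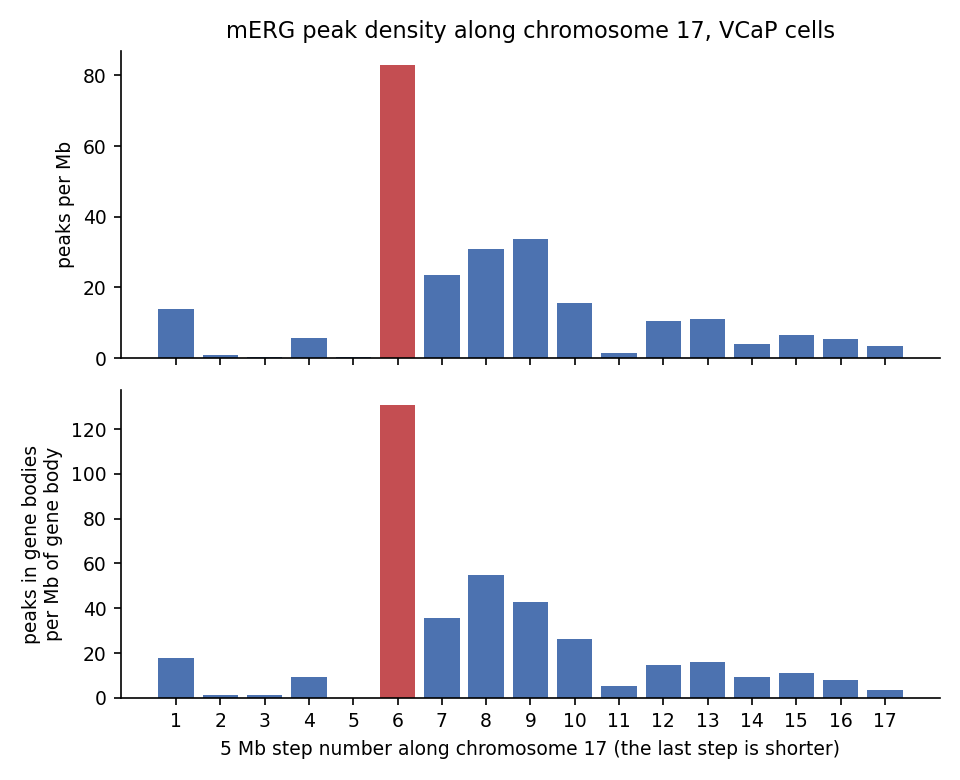
Peaks per Mb (top) and peaks in protein-coding gene bodies per Mb of gene body (bottom) for the 17 steps of 5 Mb along chromosome 17, with step 6 (25 to 30 Mb) in red. Step 6 stands at 82.8 per Mb and 130.7 per Mb of gene body, and the next highest steps at 33.6 per Mb (step 9) and 54.8 per Mb of gene body (step 8).

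The 25 to 30 Mb segment had 82.8 peaks per Mb, against 10.8 on the rest of chromosome 17, a ratio of 7.65. Assembly gaps change little, with a ratio of 7.74 over ungapped length. The ratio was also similar per length of gene: protein-coding genes cover 59.7% of it and 54.9% of the rest, and per Mb of gene body it held 130.7 peaks against 18.5, a ratio of 7.08. The ratio was lower, at 4.19, with the borders 1 Mb further down, and higher, at 8.54, with the borders 1 Mb further up. It was 2.97 when different genes named were counted in place of peaks. Among the 633 steps of 5 Mb on all chromosomes, where the median was 15 peaks, the segment ranked 1 with 414 peaks, and the next fullest step held 243. The steps at 40 to 45, 35 to 40 and 30 to 35 Mb ranked 7, 13 and 27. Without the segment, chromosome 17 would have 10.8 peaks per Mb and rank 4, still 2.27 times the median of the other 23 chromosomes.

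Inside the segment the peaks were gathered toward its upper end. In 1 Mb steps there were 11 peaks from 25 to 26 Mb, 23 from 26 to 27 Mb, 97 from 27 to 28 Mb, 136 from 28 to 29 Mb and 147 from 29 to 30 Mb. The next step, 30 to 31 Mb, held 42. At the lower border, the last peak below 25 Mb was at chr17:20432885-20433042 (score 34.7) and the next above it at chr17:25274232-25274609 (score 41.7). At the upper border, a peak at chr17:29918296-29918903 (score 57.9) lay 81.4 kb below 30 Mb and a peak in SUZ12 at chr17:30270274-30270999 (score 35.4) lay 271 kb above it. The lower border thus falls in a stretch without peaks; of the 5 Mb from 20 to 25 Mb, 2.16 Mb is outside assembly gaps, and in the gaps no peak can be called. Neighbouring peaks were close together: the median gap to the nearest other peak was 700 bp in the segment, 1662 bp on the rest of chromosome 17 and 3323 bp on other chromosomes, and 58.7% of the segment's peaks had a neighbour within 1 kb, against 42.9% and 28.7%. Peaks covered 6.60% of the segment's bases and 0.659% of the rest of the chromosome.

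The 414 peaks of the segment named 40 genes, and the 10 genes named most often took 249 of them (60.1%). NF1, which encodes the Ras-inactivating protein neurofibromin, was named by 42 peaks with scores up to 134.0. TAOK1, a STE20-family protein kinase, was named by 35, with the segment's strongest peak. OMG (oligodendrocyte myelin glycoprotein) was named by 29 peaks, SSH2 (a phosphatase that activates cofilin) by 24, EFCAB5 (an EF-hand protein) by 24, CORO6 (a coronin) by 23 and GOSR1 (a SNARE of the Golgi) by 23. EVI2A was named by 17, and the microRNA gene MIR3184 and FAM222B by 16 each. The highest median score among them was that of TAOK1 (57.9) and the lowest that of FAM222B (38.7).

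By the gene that holds the peak centre, the picture narrows. The genes singled out here and below by the peaks in their bodies, many or none, were chosen after their values were seen. The body of NF1 (chr17:29421945-29709134, plus strand, 287 kb) held 100 peak centres, of which 42 were named for NF1, 29 for OMG, 17 for EVI2A, 7 for RAB11FIP4 and 5 for EVI2B. The bodies of OMG, EVI2A and EVI2B are 25.5, 5.34 and 10.3 kb long. They lie inside the body of NF1 on the other strand and held 9, 3 and 3 of its centres. The body of SSH2 (chr17:27952956-28257294, minus strand, 304 kb) held 70 centres, 24 named for SSH2, 23 for CORO6 and 23 for EFCAB5. The body of EFCAB5 itself, 179 kb long and beside SSH2, held 1, and that of CORO6 held 0. All 16 peaks named for MIR3184 lay in NSRP1, which was named by no peak. TAOK1 (162 kb) held 43 centres, and CPD (91.1 kb, a carboxypeptidase of the secretory route) held 27. Together, the 10 protein-coding genes of the segment with at least 10 centres in their bodies span 1.41 Mb and held 335 of its peaks (80.9%).

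Other genes of the segment had few peaks or none. Of 70 protein-coding genes centred there, 45 held no peak, among them KSR1 (170 kb), PIPOX (107 kb) and SEZ6 (51.5 kb). Length went with the presence of a peak: 3 of 34 genes under 20 kb, 7 of 17 from 20 to 50 kb, 7 of 9 from 50 to 100 kb and 8 of 10 of 100 kb or more held at least 1. On the rest of the chromosome the shares were 1.13%, 13.1%, 31.6% and 60.6% in the same length classes. Some of its longest genes held none, such as ASIC2 (1162 kb, an ion channel subunit), BCAS3 (715 kb) and CA10 (530 kb). Genes with peaks were thus more frequent among long genes, and some of the longest held none; the part of length was not tested.

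**Figure D2:**
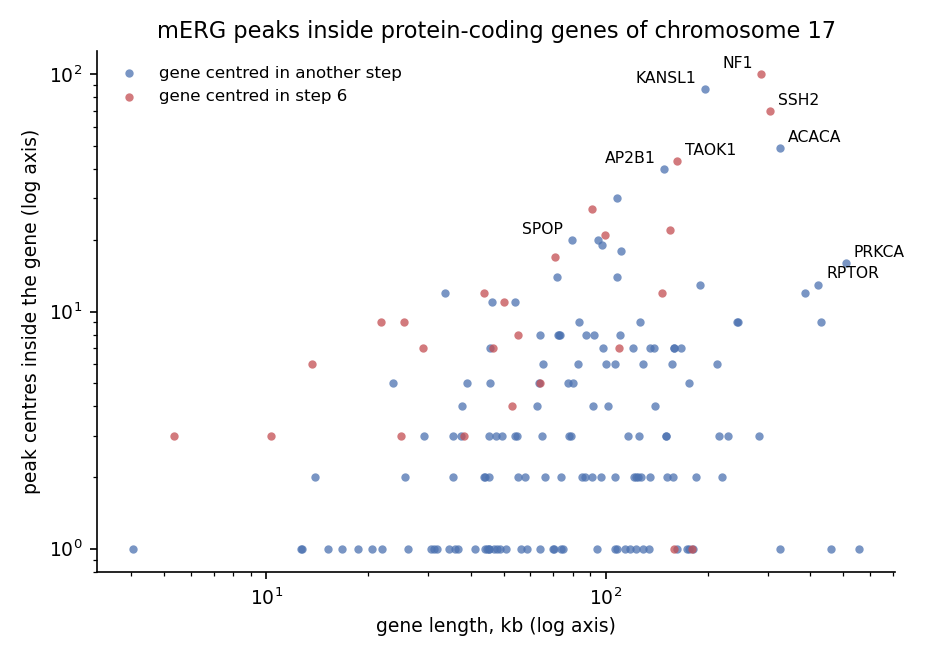
Peak centres inside each protein-coding gene of chromosome 17 that held at least 1, against gene length, both on log axes, with genes centred in step 6 (25 to 30 Mb) in red. NF1 (100 centres in 287 kb) and KANSL1 (87 in 195 kb) lie highest, while the longer PRKCA (508 kb) and RPTOR (422 kb) held 16 and 13.

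Outside the segment, the step from 40 to 45 Mb was led by KANSL1, a subunit of the NSL histone acetyltransferase complex, which was named by 60 peaks, more than any other gene of the chromosome. STH (saitohin) was named by 20 in the same step, all of which lay in the body of KANSL1. That body (chr17:44107282-44302755, minus strand, 195 kb) held 87 centres, or 44.5 per 100 kb, and the summed width of these peaks came to 47.0% of its length. By intron, 48 of the 87 lay in intron 2 of 14 of 1 KANSL1 transcript and 19 in intron 2 of 15 of another. MAPT, the tau gene, lies just beyond the end of KANSL1 with 134 kb, and its body held 1 peak (score 38.9). From 35 to 40 Mb, the genes named most often were the microRNA gene MIR2909 (32 peaks) and ACACA (31), which encodes acetyl-CoA carboxylase of fatty acid synthesis. Of the MIR2909 peaks, 18 lay in the body of ACACA and 14 in AATF. From 30 to 35 Mb they were AP2B1 (24), a subunit of a clathrin adaptor, and RASL10B (16), whose 16 peaks lay inside AP2B1.

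In the remaining steps single genes were named less often. From 0 to 5 Mb these were UBE2G1, a ubiquitin-conjugating enzyme (14 peaks), and PAFAH1B1, a regulator of dynein (7), level with ZZEF1 (7). USP43 (2) led from 5 to 10 Mb, where NDEL1, MYH10 and LOC101928266 had 1 peak each. MIR744 and COX10-AS1 had 1 peak each from 10 to 15 Mb. NCOR1, a nuclear receptor corepressor, was named by 9 and ZSWIM7 by 4 from 15 to 20 Mb, and KRT16P3 by the lone peak from 20 to 25 Mb. From 45 to 50 Mb, CDC27 (a subunit of the anaphase-promoting complex) and SPOP (a ubiquitin ligase adaptor mutated in prostate cancer) had 14 peaks each. TOM1L1 (3) and DGKE (2) led from 50 to 55 Mb. From 55 to 60 Mb RNF43, a ubiquitin ligase that restrains Wnt signalling, had 8. The clathrin heavy chain gene CLTC, MSI2 and MIR21 had 5 each there. PRKCA-AS1 (7) and LRRC37A3 (6) led from 60 to 65 Mb, and BPTF, the largest subunit of the NURF remodelling complex, and the helicase gene HELZ led from 65 to 70 Mb with 6 and 3. The adaptor gene GRB2 and MFSD11 had 6 each from 70 to 75 Mb, RPTOR (a partner of mTOR) 7 and LOC101928855 6 from 75 to 80 Mb, and FOXK2 3 and WDR45B 1 after 80 Mb. In none of these steps did a named gene have more than 14 peaks.

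The names and the bodies differed often over the whole chromosome. Of the 1239 centres, 1162 (93.8%) lay in a protein-coding gene, and 447 of those (38.5%, Wilson 95% interval 35.7 to 41.3%) were named for another gene. In the segment this share was 45.4% (interval 40.5 to 50.35%) and on the rest of chromosome 17 35.0% (interval 31.7 to 38.4%). These intervals and those that follow cover counting error only. They treat peaks as independent although neighbours often share a gene, as do the exact tests below. The 1239 peaks named 245 genes, 89 of them by 1 peak and 32 by 10 or more, and those 32 took 641 peaks. There were 5.06 peaks per named gene on chromosome 17, 10.35 in the segment and 3.53 on other chromosomes.

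The score comes from the authors' list and is the MACS p-value of a peak against the control as −10·log10. On chromosome 17 it ranged from 33.02 to 468.6 with a median of 43.8, against 40.7 on other chromosomes. The median was 47.1 from 25 to 30 Mb, 43.8 from 30 to 35 Mb, 47.75 from 35 to 40 Mb and 48.2 from 40 to 45 Mb, and between 34.7 and 41.1 in each of the other 13 steps. Scores of 100 or more were held by 67 peaks (5.41%), against 2.00% of peaks on other chromosomes, and 65 of the 67 lay between 25 and 45 Mb. The segment had 21 of them and the step from 40 to 45 Mb another 21, of which 18 were named for KANSL1. These 4 medians were above those of the other steps, though not evenly within them: in 1 Mb steps, the median was 37.4 from 30 to 31 Mb (42 peaks) and 54.1 from 44 to 45 Mb (106 peaks). The segment from 25 to 30 Mb, with the most peaks, did not have the strongest ones.

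Width followed a similar course. The median width was 558 bp on chromosome 17 and 393 bp on other chromosomes. By step, it was 711.5 bp from 25 to 30 Mb, 662 bp from 30 to 35 Mb, 711 bp from 35 to 40 Mb and 579.5 bp from 40 to 45 Mb, and at most 417 bp in the other 13 steps. Of 198 peaks at least 1 kb wide, 197 lay between 25 and 45 Mb, 94 of them in the segment. The limits of 100 in score and 1 kb in width were also chosen after values were seen. Over the 16 full steps, peaks per Mb and median score had a Spearman rho of 0.81, and peaks per Mb and median width one of 0.87; all these values come from the same 2 libraries, and steps with few peaks have uncertain medians. With gene body coverage of the step, rho was 0.36.

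**Figure D3:**
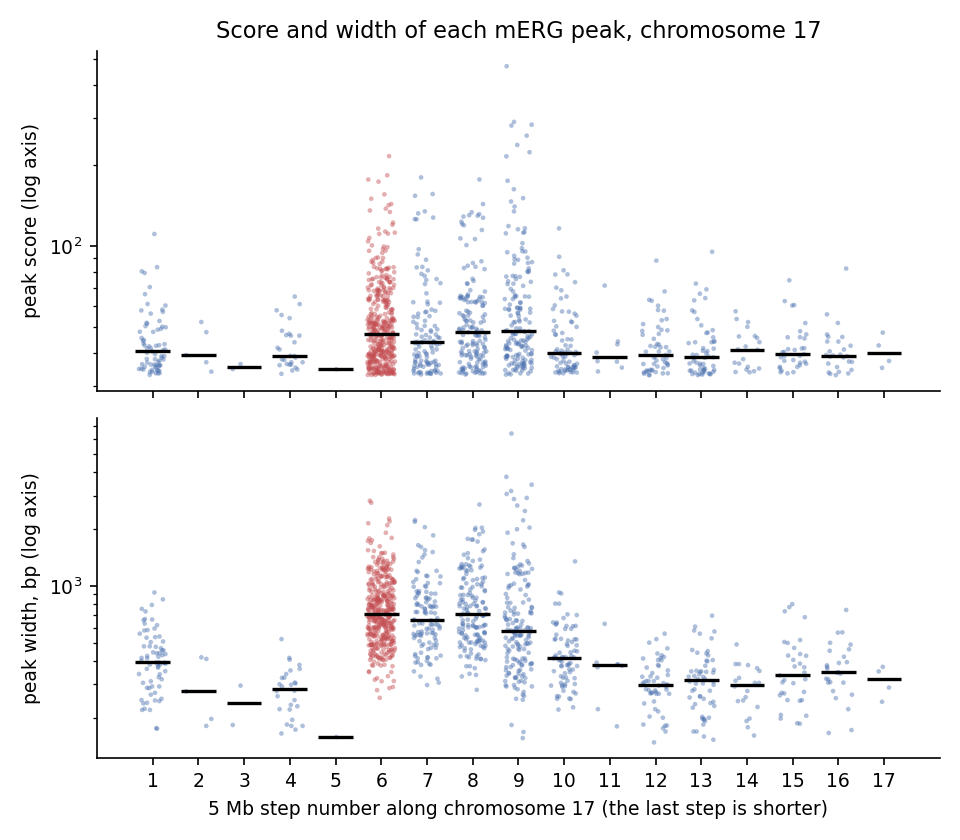
Score (top) and width in bp (bottom) of each of the 1239 peaks by 5 Mb step along chromosome 17, on log axes, with black lines at the medians and step 6 (25 to 30 Mb) in red. Steps 6 to 9 reach medians of 43.8 to 48.2 in score and 579.5 to 711.5 bp in width, above all other steps.

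Most of the 5 strongest peaks lay in KANSL1. The highest score of the chromosome, 468.6, was that of a peak at chr17:44249635-44252701, 3067 bp wide, in intron 2 of 15 of a KANSL1 transcript and 19.0 kb from the TSS, and it ranked 5 in the whole list. Peaks at chr17:44206972-44209855 (score 290.4), chr17:44214156-44217592 (score 283.6) and chr17:44232615-44235537 (score 258.1) lay in intron 2 of 14 of another KANSL1 transcript. The other member of the 5 strongest was an intergenic peak at chr17:43650788-43657204 (score 281.4), 25.8 kb from the TSS of the pseudogene MAPK8IP1P2, which at 6417 bp was also the widest. The other 4 of the 5 widest peaks, from 3067 to 3781 bp, were in introns numbered 2 of these KANSL1 transcripts. In the segment, the 3 strongest peaks lay in introns 1 and 2 of TAOK1, at chr17:27769166-27771439 (score 216.4), chr17:27787038-27789132 (score 183.6) and chr17:27772435-27774580 (score 177.1), and the next in intron 1 of RAB11FIP4 at chr17:29734170-29735533 (score 173.9).

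By location class, introns held 1090 of the 1239 peaks (88.0%, Wilson 95% interval 86.0 to 89.7%). Another 67 were intergenic (5.41%), 32 lay in exons (2.58%), 21 in 3' UTRs (1.69%), 12 at the ends of transcripts (0.969%), 9 in non-coding transcripts (0.726%) and 8 at promoters (0.646%). On other chromosomes the intron share was 87.6%, a difference of 0.398 percentage points (p = 0.721 by Fisher's two-sided exact test, and 0.721 after adjustment over 4 tests). The direction turned with the stronger 50% of peaks (−0.218 percentage points) and with a minimum score of 50 (−0.920). In the segment the intron share was 86.7% (359 of 414) and on the rest of chromosome 17 88.6% (731 of 825), a difference of −1.89 percentage points (p = 0.355 by the same exact test, adjusted p = 0.473). With 1 peak per named gene, the segment's share was 72.5% and that of the rest 85.9%, a difference of −13.35 percentage points (p = 0.0581 by the exact test, adjusted p = 0.0775; 0.0775 to 0.664 over 3 alternatives). Neither difference passed the threshold of 0.05, and the size of the segment's difference depended on whether peaks or genes were counted.

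Among the smaller classes, given without a test, the segment had more exon peaks (4.35%, 18 peaks) and more 3' UTR peaks (3.62%, 15 peaks) than the rest of chromosome 17 (1.70% and 0.727%), and fewer intergenic ones (2.90% against 6.67%). The first intron of a transcript held 140 of its 359 intron peaks (39.0%, interval 34.1 to 44.1%), against 26.1% on the rest of the chromosome and 32.25% on other chromosomes. In TAOK1, 28 of the 43 centres lay in intron 1 of 19. In NF1, 29 of the 100 lay in intron 1 of 14 of a transcript. In SSH2, 23 of the 70 lay in intron 1 of 15 and 11 in intron 1 of 7 of another transcript. These genes thus supplied many of the segment's first-intron peaks. In genes of at least 20 kb, the 5 equal parts of the gene from its start to its end held 21.3%, 21.6%, 19.5%, 17.8% and 19.8% of the segment's centres, nearly level. Over all of chromosome 17 the shares were 23.8%, 23.7%, 19.2%, 19.4% and 13.9%. A peak in overlapping genes was counted for each of them.

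**Figure D4:**
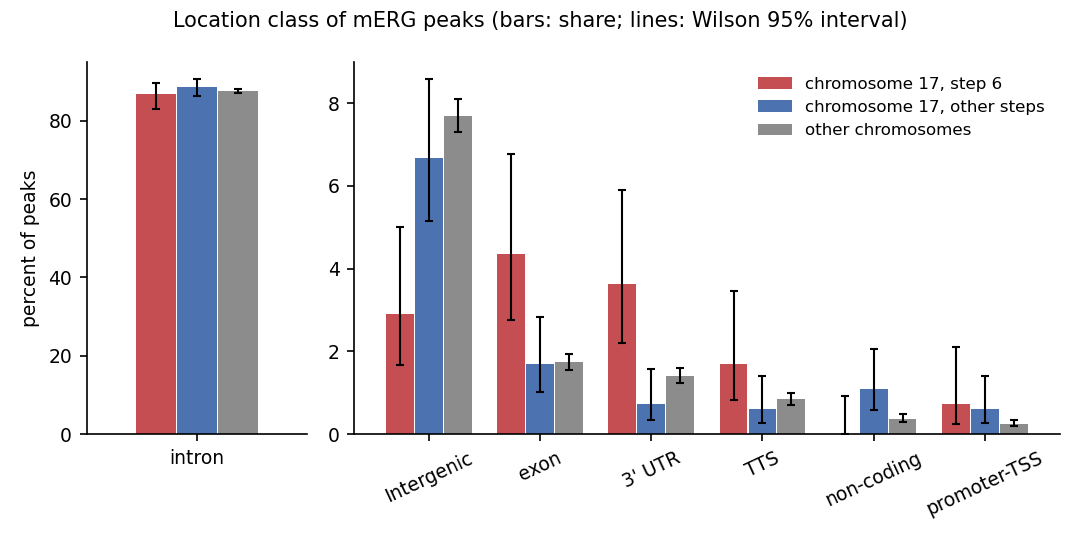
Share of peaks in each location class for step 6 of chromosome 17 (25 to 30 Mb, 414 peaks), its other steps (825 peaks) and the other chromosomes and contigs (16831 peaks), with Wilson 95% intervals that cover counting error only. Introns hold 86.7%, 88.6% and 87.6%, and no other class exceeds 7.69% of peaks in any of these groups.

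Promoters held 8 peaks (0.646%), against 0.2495% of peaks on other chromosomes, given without a test. Of the 8, those of EVI2B (chr17:29641077-29641505, score 47.6), EVI2A (chr17:29648570-29649053, score 44.8) and DPRXP4 (chr17:29301571-29302429, score 41.4) lay in the segment, the first 2 inside NF1. The others were at ARGFXP2 (38.9), TMEM106A (38.9), SPAG9 (36.7), LOC101927557 (33.4) and MIR634 (33.3). The centres of the 1239 peaks had a median distance of 25.03 kb from the nearest TSS, with 12 within 1 kb (0.969%, against 0.446% on other chromosomes), 119 within 5 kb and 277 within 10 kb (22.4%), and 71.0% lay downstream of it. In the segment 62.6% lay downstream, against 75.3% on the rest of the chromosome.

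Lists of chromosome 17 genes show which regulators were named, beside the 15.2% of all placed genes of the chromosome. Among the Polycomb genes, SUZ12, a core subunit of Polycomb repressive complex 2 (score 35.4), and EZH1, the homologue of EZH2 (score 38.6), were named by 1 weak peak each. SUZ12 lies above the segment, from 30 to 35 Mb, and held 1 centre in 64.0 kb.

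Among 21 other chromatin regulators, 8 were named. KANSL1 (60 peaks) and NCOR1 (9 peaks, highest score 64.8) led, followed by BPTF (6, highest score 53.4), TADA2A (4, 64.3), TLK2 (4, 68.9), CDK12 (2, 56.4), MED13 (2, 40.6) and BRCA1 (2, 53.1). The body of PHF12, a subunit of a SIN3 complex in the segment, held 7 centres, the strongest at 107.2, that were all named for another gene. Those named by 0 peaks included KDM6B, KAT2A, KAT7, CHD3, HDAC5 and MED1.

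Among the prostate and other cancer genes, NF1 (42 peaks) was followed by SPOP (14, highest score 91.2), RNF43 (8, 67.7), GRB2 (6, 46.8), CLTC (5, 57.7), MSI2 (5, 52.9), TRIM37 (3, 88.2), VMP1 (2, 59.9), BRIP1 (2, 45.1) and PPM1D (1, 38.8). The genes named by 0 peaks included the prostate lineage factor HOXB13, ERBB2, RARA, STAT3, STAT5A, STAT5B, TOP2A and SOX9, and none of these 8 held a centre in its body. ETV4, an ETS factor, was named by 0. The lists are made of genes with known roles, and many of those named are long: BPTF spans 159 kb, NCOR1 189 kb, KANSL1 195 kb, NF1 287 kb and MSI2 429 kb. The part of length in these counts was not tested.

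The study's list of ERG/EZH2 targets whose expression differs between castration-resistant and primary prostate tumors includes 34 placed on chromosome 17, and 7 of them (20.6%) were named by a peak, against 214 of the 1417 other genes (15.1%). The named ones were SSH2 (24 peaks), MYO1D (10), NCOR1 (9), CLTC (5), and C17orf67, TANC2 and RBFOX3 (1 each). Targets had a median length of 49.3 kb and the other genes 13.8 kb. The study itself chose this list, and the difference in share was not tested.

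The sequence at the peak centres was compared with 2 backgrounds. GGAA or TTCC lay within 100 bp of the centre in 1005 of the 1239 peaks (81.1%, Wilson 95% interval 78.8 to 83.2%). In windows of the same length 2000 bp to either side it was found in 1887 of 2478 (76.2%), which is 4.96 percentage points fewer than at the centres (p = 5.92e-04 by Fisher's two-sided exact test, adjusted p = 0.00237, odds ratio 1.345). The exact test treats these peaks of 1 ChIP library as independent, although 48.2% of them had a neighbour within 1 kb. The call was lost in each of 4 alternatives, which used the stronger 50% of peaks, a minimum score of 50, 1 peak per named gene or 50 bp on each side of the centre; by the same exact test, their adjusted p ranged from 0.0605 to 0.924. The difference was 3.36, 4.13 and 3.75 percentage points in the first, second and last of these. With flanking windows outside every peak, a choice made after seeing the data, it was 5.94 and the call was kept. With the strongest peak of each of the 245 named genes, 78.8% of centres and 78.4% of flanking windows held the core, nearly the same share. Of the flanking windows, 597 overlapped another peak. Base composition differed too, with a median GC content of 38.3% at the centres and 40.8% in the flanking windows, and its part in the difference was not tested.

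Compared with other chromosomes, the core was less frequent at the centres of chromosome 17 peaks, at 81.1% against 84.0% (14112 of 16798), which is −2.90 percentage points apart (p = 0.00835 by Fisher's two-sided exact test, adjusted p = 0.0167, odds ratio 0.818). This test also treats neighbouring peaks as independent. The median GC content was 38.3% in both groups. The direction turned when whole peaks, which are wider on chromosome 17, were searched (96.2% against 94.8%), and the call was lost with a minimum score of 50. It was kept with the stronger 50% of peaks (−3.51 percentage points), with 1 peak per named gene (−5.70) and with 50 bp on each side of the centre (−4.51); over 5 alternatives the adjusted p of the exact test ranged from 0.00362 to 0.473. The flanking windows differed the same way, at 76.2% for chromosome 17 and 79.8% for other chromosomes, and the centres of chromosome 20 were at 81.7%, both given without a test. The lower share was thus found neither at the peak centres alone nor on chromosome 17 alone, and it was not found over whole peaks. In the segment the share was 82.1% (interval 78.1 to 85.5%) and on the rest of chromosome 17 80.6% (interval 77.8 to 83.2%). The fuller core CCGGAAGT, with at most 1 mismatch outside GGAA on either strand, was found at 48 centres (3.87%, interval 2.93 to 5.10%). It was found in 2.62% of the flanking windows and at 2.53% of the centres of other chromosomes. In the flanking windows of other chromosomes the share was 3.01%, above that at their centres. These shares of the fuller core are given without a test.

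Repeats were also counted at the peak centres. SINEs held 221 of the 1239 centres (17.8%, interval 15.8 to 20.1%), against 13.9% on other chromosomes, and LINEs 209 (16.9%, interval 14.9 to 19.1%), against 18.1%. Within the chromosome the SINE share was 13.8% in the segment and 19.9% on the rest. No repeat was annotated at 696 centres (56.2%), against 57.8% on other chromosomes. The segment with the most peaks thus had the lower SINE share, and these values were not tested.

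Chromosome 20, the next densest with 13.2 peaks per Mb, had narrower peaks. Its 835 peaks had a median score of 41.6 and a median width of 411 bp, 8 of them (0.958%) were at least 1 kb wide, against 15.98% on chromosome 17, and 93.1% lay in introns. By the length of its protein-coding genes, chromosome 17 ranked 3 of 24, with 25.9 peaks per Mb. Its protein-coding genes cover 55.2% of its length, against a median of 42.2%. Chromosome 17 ranked 1 in median score and in median width. Chromosome 8 came close in both, with a median score of 42.8 and a median width of 544 bp, and 161 of its 1594 peaks were at least 1 kb wide. On chromosome 11, 124 of 986 peaks were, so wide peaks were not particular to chromosome 17.

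**Figure D5:**
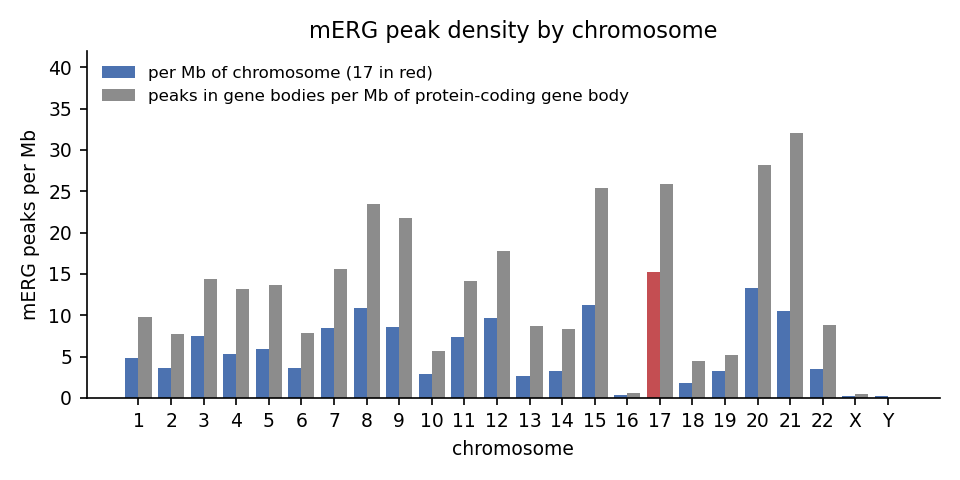
mERG peaks per Mb of each chromosome (blue, chromosome 17 in red) and peaks in protein-coding gene bodies per Mb of gene body (grey). Chromosome 17 is highest per Mb (15.3) and lies below chromosomes 21 (32.1) and 20 (28.2) per Mb of gene body (25.9).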

How the data were processed

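The analysis started from the deposited list of mERG peaks. Its header points to MACS peaks, annotated with HOMER on hg19, and the submitters' processing notes name Bowtie2, Picard and HOMER without versions; the MACS version and threshold were not given in the sources used here. The score (−10·log10 of the MACS p) was deposited by the authors and was not scaled to depth. Read depth is unknown from the list. Positions are 1-based, and steps were assigned by peak centre.

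Protein-coding gene bodies and gene positions came from GENCODE release 44 on GRCh37, and 26699 of 29985 RefSeq genes with a curated transcript were placed (89.0%). Sequence was read from GRCh37. Shares have Wilson 95% intervals. The 4 planned tests were Fisher's exact tests, two-sided, with Benjamini-Hochberg adjustment and a threshold of 0.05. They treat peaks of 1 ChIP library as independent, so their p-values do not measure variation between libraries. The members and the gene lists were chosen with earlier results of these data known. Named genes are the 10 with most peaks from 25 to 30 Mb and 2 for each other step, with any tied for the second place. Those of the 5 strongest and 5 widest peaks, of promoter peaks and of the fixed lists are also named. The peaks named for SEPTIN9, whose symbol a spreadsheet had turned into a date, were named by Entrez identifier. The counting and motif code was tested on simulated data. The tools were pysam 0.24.0, SciPy 1.17.1, pandas 2.3.3, NumPy 2.4.6 and Matplotlib 3.10.9 under Python 3.11.15.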

Additional observations from a re-analysis of the deposited data

Results flagged for a closer look

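The list holds 4 mERG peaks on an unplaced contig of chromosome 17, which the counts of chromosome 17 leave out and which are counted with the other chromosomes and contigs. They are given because they are signal in data that the counts by position do not use, and no test sets them apart. Their scores were 41.0, 46.4, 39.4 and 33.9 and their widths 206, 390, 495 and 307 bp. The first 3 lie less than 1 kb apart. Control reads over them were not analysed here.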

How the results depend on the processing

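Of 41 alternatives, 17 kept direction and threshold side, an untested value within its interval, or a count within 1.5 times (844 peaks on chromosome 17 after merging, against 1239), 16 moved a value without a test, 5 took a test past its threshold and 3 turned a direction; the causes were not tested unless stated. Among the 17, the intron difference of the segment from the rest was −13.35 percentage points with 1 peak per named gene, and the GGAA difference from other chromosomes −5.70. Fewer peaks pass a stricter score by construction. With the stronger 50% of peaks, chromosome 17 held 729 peaks, its density was 3.87 times that of the median chromosome, the segment was 9.02 times as dense as the rest, 10.9% of genes were named, the intron difference from other chromosomes was −0.218 percentage points (Fisher's exact test here and below, adjusted p = 0.8465; 0.497 to 0.8465 over 3 alternatives) and the GGAA difference from flanking windows 3.36 (adjusted p = 0.157). With a minimum score of 50 these values were 436, 5.08, 10.5, 7.86%, −0.920 (exact test, adjusted p = 0.518) and 4.13 (adjusted p = 0.163), the GGAA difference from other chromosomes was −2.14 (adjusted p = 0.473; 0.00362 to 0.473 over 5 alternatives) and the median width 856.5 bp. With peaks less than 1 kb apart merged, both densities were lower, at 2.40 and 6.60 times. Per length of protein-coding gene, chromosome 17 had 2.26 times the median. The segment was 4.19 times as dense as the rest with its borders 1 Mb lower, which leaves out the fullest step, and 2.97 times when different genes were counted. With 1 peak per named gene, the GGAA difference from flanking windows was 0.408 (exact test, adjusted p = 0.924), and with 50 bp on each side of the centre 3.75 (adjusted p = 0.0605). Outside every peak, a choice of flanking windows made after seeing the data, it was 5.94 (exact test, adjusted p = 3.80e-04). Over whole peaks, the GGAA difference from other chromosomes was 1.36 (exact test, adjusted p = 0.0741). Genes named were 12.3% by gene body (15.2% over all chromosomes) and 8.20% within 10 kb of the TSS (7.61%); the order against all chromosomes turned within 10 kb and with a minimum score of 50 (6.55%). The segment exceeded the rest in density under all 8 alternatives, and chromosome 17 the median under all 6. Both were chosen for their many peaks in this same list, so that direction was largely set by the choice and is no independent check. No paired analysis was possible between replicate libraries because there is 1 ChIP library and 1 control. The test against flanking windows did not use the pairing of each peak with its own windows. No replicate limits these values, and the depth behind the peaks is unknown.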
